A study of Mus musculus with 4 samples.

Results

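The genes described here encode basic helix-loop-helix (bHLH) factors that direct cells into lineages, together with their Hes, Hey and Id antagonists. A list of 51 mouse genes was chosen by name as members of these families, and 50 of them carried named probes on the arrays, out of 17649 promoters in all. The remaining gene, Atoh1, was not analysed here. The 50 genes fall into 17 neural genes, 11 mesodermal genes, 4 myogenic genes, 3 genes of the Tal1 type, 9 Hes and Hey genes, 4 Id genes and the pair Ascl2 and Ascl3. They were covered by 1795 of 462572 named probes, with 8 to 50 probes per gene (median 36.5).

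Ring1B occupancy was measured by chromatin immunoprecipitation on promoter arrays in mouse embryonic fibroblasts, which are cultured connective-tissue cells explanted from whole embryos. The compared cells were homozygous for the Phc2 L307R allele (genotype Phc2 L307R/L307R) or were wild type. All cells were of the C57BL/6 strain, derived from embryos of embryonic day 12.5 and used at passage 2. No treatment is given in the labels, nor the number of embryos behind a culture. Ring1B-precipitated DNA was labelled with Cy5 and input DNA from the same genotype with Cy3, after amplification of both with T7 RNA polymerase. The promoters are spread over 2 array designs that share 0 probes, so each promoter was measured on 1 array per genotype. There is therefore no replicate of any difference given below, no p-value is given, and genotype cannot be told apart from array or scan day.

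Members of the bHLH family bind the short E-box sequence as dimers, usually of a lineage-restricted factor with a broadly expressed E protein. Proneural, mesodermal and myogenic members drive differentiation, Hes and Hey proteins repress transcription downstream of Notch, and Id proteins lack the DNA-binding basic region and hold E proteins in inactive dimers. Many of these genes are textbook targets of Polycomb repression in cells of other lineages. Ring1B is the ubiquitin ligase of Polycomb repressive complex PRC1, and the Phc2 protein belongs to PRC1 and carries a SAM domain that polymerises. The comparison addressed whether Ring1B stays on its promoters when that polymerisation is impaired.

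Promoter sequences are shown for 6 genes that span the range of Ring1B values. Tal1, Nhlh2 and Olig3 were among the most strongly enriched genes. Neurog3 had the largest positive difference between genotypes, Hes5 was the gene that reached the cut-off for bound in Phc2 L307R cells alone, and Id4 is an enriched gene with a CpG-rich promoter. These 6 were chosen after their values were seen. Each sequence is the RefSeq promoter of GRCm38.p6, running 5′ to 3′ on the plus strand with 250 bases before and 50 bases after the gene start, and CpG dinucleotides are in capitals. The positions are chr4:115056176-115056475 for Tal1, chr3:102009895-102010194 for Nhlh2, chr10:19356289-19356588 for Olig3, chr10:62132840-62133139 for Neurog3, chr4:154960673-154960972 for Hes5 and chr13:48260866-48261165 for Id4.
Tal1: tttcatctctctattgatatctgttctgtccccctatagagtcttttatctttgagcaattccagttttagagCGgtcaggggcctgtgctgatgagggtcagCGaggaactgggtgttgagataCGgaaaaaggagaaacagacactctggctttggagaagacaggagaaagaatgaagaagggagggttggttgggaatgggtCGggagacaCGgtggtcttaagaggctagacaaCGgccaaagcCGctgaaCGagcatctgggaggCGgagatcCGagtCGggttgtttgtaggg
Nhlh2: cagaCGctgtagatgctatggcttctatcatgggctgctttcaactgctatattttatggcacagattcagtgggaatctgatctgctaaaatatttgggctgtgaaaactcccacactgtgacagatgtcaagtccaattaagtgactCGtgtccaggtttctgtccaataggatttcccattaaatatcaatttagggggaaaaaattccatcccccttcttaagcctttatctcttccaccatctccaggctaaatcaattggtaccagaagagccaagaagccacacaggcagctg
Olig3: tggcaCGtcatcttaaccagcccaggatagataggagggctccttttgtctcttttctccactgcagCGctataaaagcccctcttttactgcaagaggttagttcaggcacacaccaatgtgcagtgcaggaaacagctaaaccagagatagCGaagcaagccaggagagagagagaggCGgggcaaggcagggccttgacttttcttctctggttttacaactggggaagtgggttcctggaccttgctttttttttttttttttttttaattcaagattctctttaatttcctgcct
Neurog3: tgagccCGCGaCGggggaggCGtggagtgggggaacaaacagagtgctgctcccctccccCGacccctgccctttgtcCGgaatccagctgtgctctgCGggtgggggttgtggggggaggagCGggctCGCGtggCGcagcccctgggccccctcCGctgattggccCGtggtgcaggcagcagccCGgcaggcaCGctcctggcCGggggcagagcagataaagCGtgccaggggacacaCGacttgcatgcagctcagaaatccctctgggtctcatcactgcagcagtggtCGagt
Hes5: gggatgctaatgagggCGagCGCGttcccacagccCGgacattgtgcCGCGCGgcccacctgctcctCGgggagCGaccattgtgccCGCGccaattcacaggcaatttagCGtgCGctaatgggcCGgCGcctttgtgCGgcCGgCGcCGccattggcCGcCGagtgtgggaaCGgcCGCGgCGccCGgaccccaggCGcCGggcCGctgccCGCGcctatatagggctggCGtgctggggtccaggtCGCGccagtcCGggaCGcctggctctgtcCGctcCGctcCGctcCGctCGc
Id4: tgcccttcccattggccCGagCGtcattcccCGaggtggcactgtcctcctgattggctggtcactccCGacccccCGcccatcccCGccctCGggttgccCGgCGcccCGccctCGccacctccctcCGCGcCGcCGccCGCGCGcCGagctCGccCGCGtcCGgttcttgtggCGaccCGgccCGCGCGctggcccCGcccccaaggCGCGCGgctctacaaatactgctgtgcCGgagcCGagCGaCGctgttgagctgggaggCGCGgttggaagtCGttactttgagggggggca

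Among the printed promoters, which were chosen after their values were seen, CpG content did not follow the Ring1B value. The promoters of Tal1, Nhlh2 and Olig3 held 11, 2 and 4 CpG dinucleotides in 300 bases, against 19 in Neurog3, 41 in Hes5 and 39 in Id4. A promoter sequence was matched for 36 of the 50 genes. The median CpG count was 11 (range 2 to 25) in the 9 matched genes with a Ring1B value of at least 3 on the log2 scale in either genotype, 23 in the 17 genes with values between 1 and 3, and 5.5 in the 10 genes below 1 in both genotypes. The median was 16 over the 12823 matched promoters of the arrays and 20 over the 186 of them with a value of at least 3 in wild type. It was 22 over the 5742 with a wild-type value between 1 and 3, and 8 over the 6895 below 1 in wild type. Over all 27025 promoters of the sequence table, with or without probes, it was 7. The E-box CANNTG, searched on both strands, was present in 72.2% of the matched genes and in 67.0% of the matched promoters of the arrays. Over all promoters of the table the share was 72.2%. The N-box CACNAG, the Hes recognition sequence, was present in 33.3% of the matched genes, in 41.3% of the matched promoters of the arrays and in 42.6% of all promoters. These windows cannot be laid over the probe positions, for which no source used here names a genome build, so it is not known whether the enriched probes lie inside them.

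Ring1B was enriched at most lineage bHLH genes in both genotypes, and the strongest values belonged to neural, mesodermal and Tal1-type genes. The value of a gene is the mean log2 ratio of immunoprecipitate over input in the window of 3 neighbouring probes that had the highest mean over both genotypes. A value of 0 is the array median, the error is the SD over the 3 probes, and a gene was called bound at a value of at least 1. A promoter with more probes offers more windows to choose from. The 50 genes had more probes per promoter (1795 probes) than the arrays at large (462572 probes for 17649 promoters). The shares below were not adjusted for this. In Phc2 L307R cells 34 of the 50 genes (68%) were bound, beside 39.3% of all promoters. In wild-type cells 36 (72%) were bound, beside 45.4% of all promoters. Both genotypes shared 33 bound genes, Hes5 was bound in Phc2 L307R alone, and Bhlhb4, Scx and Tal2 were bound in wild type alone. Bound in either genotype were 37 genes, beside 51% of all promoters. The excess over all promoters was larger among high values. A value of at least 3 was reached by 10 genes (20%) in Phc2 L307R, beside 1.44% of all promoters, and by 9 genes (18%) in wild type, beside 1.58%.

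**Figure D1:**
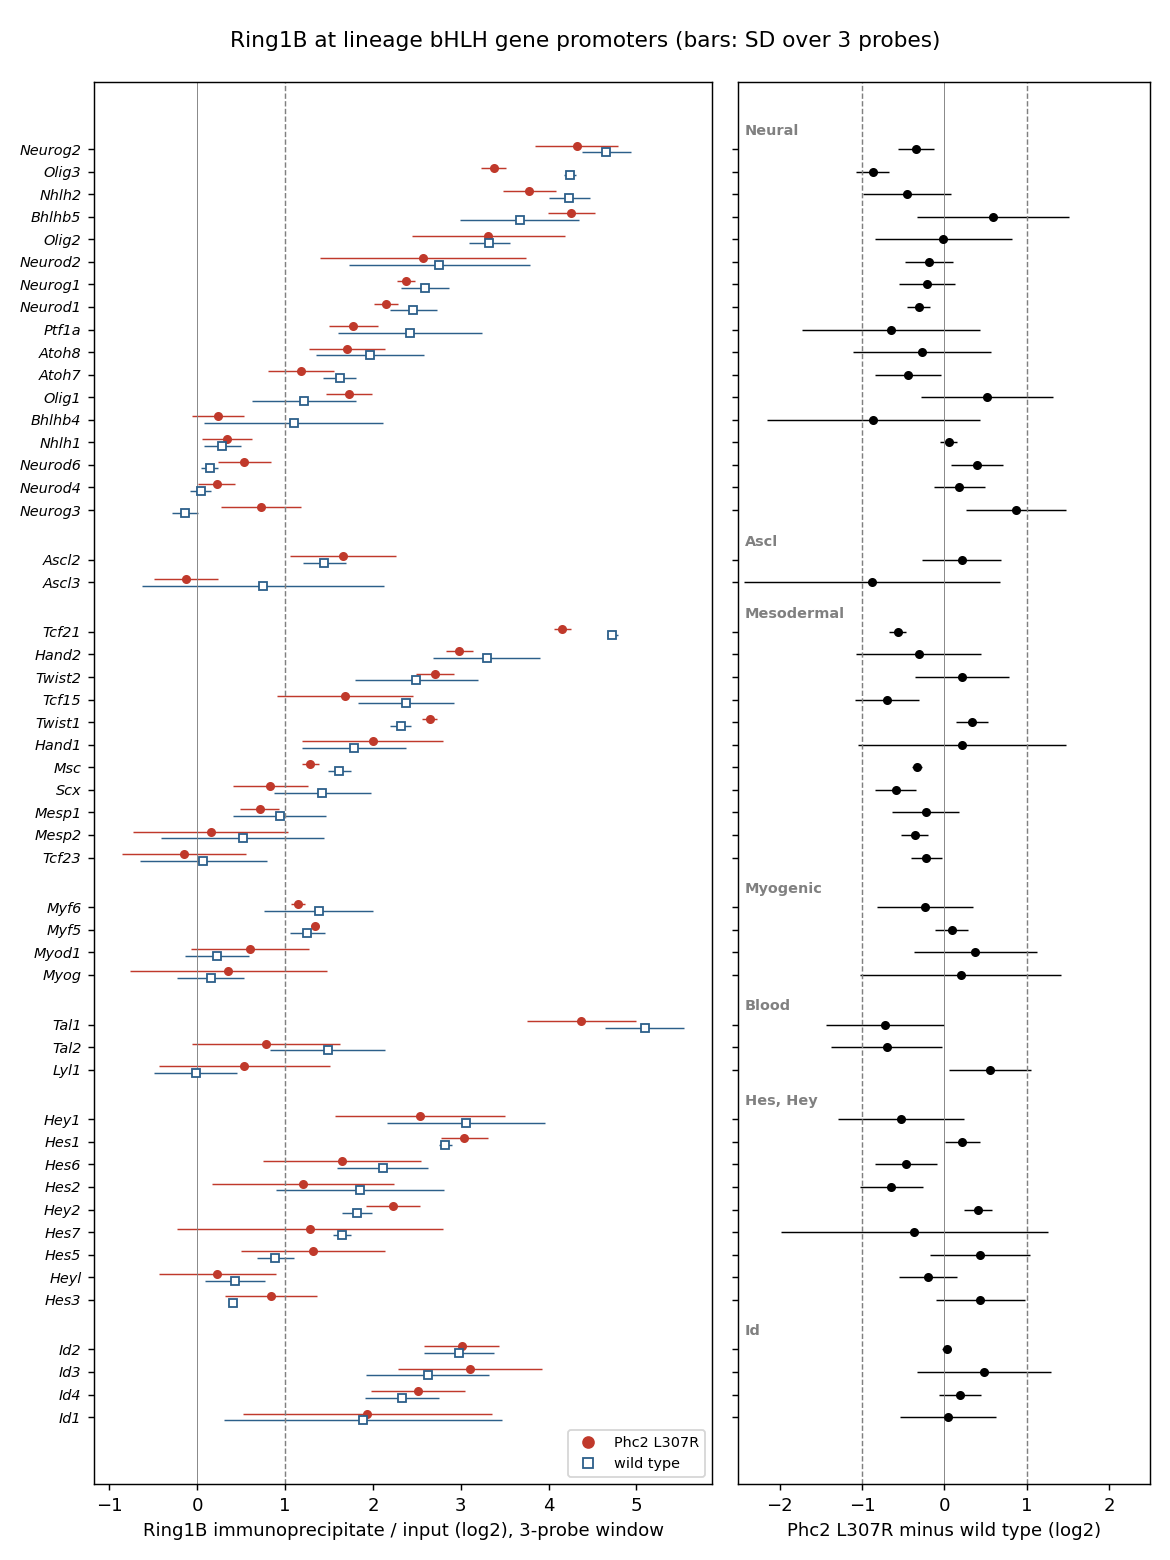
Left, log2 ratio of Ring1B immunoprecipitate over input for each of the 50 genes, with Phc2 L307R as filled circles and wild type as open squares, ordered by the wild-type value within each role group. Right, the difference Phc2 L307R minus wild type on the log2 scale. Bars are the SD over the 3 probes of the window, and dashed lines mark the cut-off for bound at 1 (left) and the size rule at -1 and 1 (right), which no gene passed.

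No lineage bHLH gene met the rule of size for a change between the genotypes. The rule asked for a bound gene with a difference of 1 or more on the log2 scale, in the same direction at each of its 3 probes. By that rule 0 of the 37 bound genes were lower in Phc2 L307R, beside 3.01% of all bound promoters, and 0 were higher, beside 1.64%. The differences of all 50 genes ran between -0.87 and 0.87, and 20 (40%) exceeded the SD over their own 3 probes, beside 35.3% of all promoters. Of the bound genes, 23 (62.2%) had a difference below 0, beside 61.9% of all bound promoters, which is no excess. All 3 probes were lower in Phc2 L307R at 13 bound genes (35.1%, against 29.6% of all bound promoters) and higher at 4 (10.8%, against 13.5%). Among the 12 genes with a value of at least 3 in either genotype, 0 were lower, beside 17.3% of all promoters in that range, and 0 were higher, beside 3.81%. Of the 10 genes whose larger value lay between 2 and 3, 0 were lower, beside 4.39%, and 0 were higher, beside 2.9%. Of the 15 genes between 1 and 2, 0 were lower, beside 2.03%, and 0 were higher, beside 1.27%.

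The neural genes ranged from strongly enriched through moderately enriched to near the array median. Neurog2, a proneural factor of cortical and sensory progenitors, had 4.32 ± 0.47 in Phc2 L307R and 4.66 ± 0.28 in wild type, and its window lay at chr3:127622799-127623147 in the coordinates of the files. Nhlh2, a factor of hypothalamic neurons, had 3.78 ± 0.30 in Phc2 L307R and 4.24 ± 0.23 in wild type. Bhlhb5 (now Bhlhe22), which acts in cortical and dorsal spinal neurons, had 4.25 ± 0.27 in Phc2 L307R and 3.67 ± 0.68 in wild type. Neurog2 and Nhlh2 lay lower in Phc2 L307R and Bhlhb5 lay higher, but only the Neurog2 difference, -0.34 ± 0.22, exceeded the SD over its probes. The values were recomputed under 9 other ways of processing, 10 settings in all. Neurog2 and Nhlh2 had a negative difference in all 10, whereas that of Bhlhb5 was negative in 4.

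Olig3, a determinant of dorsal spinal interneurons, had the most negative difference of the neural genes. Its 3 probes read 3.21, 3.46 and 3.45 in Phc2 L307R, against 4.31, 4.24 and 4.18 in wild type, so the probes of the genotypes did not overlap. The difference was -0.87 ± 0.20 in a window at chr10:19040995-19041503, just short of the rule. Olig2, which specifies motor neurons and oligodendrocytes, had 3.31 ± 0.87 in Phc2 L307R and 3.32 ± 0.24 in wild type. Olig1, its partner in oligodendrocytes, had 1.73 ± 0.26 in Phc2 L307R and 1.21 ± 0.59 in wild type. The Olig2 difference of -0.01 ± 0.83 and the Olig1 difference of 0.52 ± 0.80 were smaller than the SD over their probes. The windows of Olig1 and Olig2 lay 43808 bp apart.

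Neurog1, Neurod1, Neurod2, Ptf1a, Atoh7 and Atoh8 were moderately enriched and lay below their wild-type values, with differences of -0.65 to -0.19. None met the rule of size. Olig1, also bound in both genotypes at moderate values, went the other way, with a difference of 0.52 ± 0.80. Neurog1, a proneural factor of sensory neurons, had 2.38 ± 0.10 in Phc2 L307R and 2.59 ± 0.27 in wild type, but 0 of its 3 input probes were well above background in Phc2 L307R, so that ratio rests on a dim input. Neurod1, a differentiation factor of neurons and endocrine cells, had 2.15 ± 0.13 in Phc2 L307R and 2.46 ± 0.27 in wild type, with a difference of -0.31 ± 0.14. Neurod2, of cortical neurons, had 2.57 ± 1.17 in Phc2 L307R and 2.76 ± 1.03 in wild type. Its single probes ran between 1.42 and 3.76 in Phc2 L307R and between 1.63 and 3.64 in wild type in parallel, so that the difference was narrow at -0.19 ± 0.29. Ptf1a, a factor of pancreatic acinar cells and inhibitory neurons, had 1.78 ± 0.28 in Phc2 L307R and 2.42 ± 0.82 in wild type, a difference of -0.65 ± 1.08. Atoh7, required for retinal ganglion cells, had 1.18 ± 0.37 in Phc2 L307R and 1.62 ± 0.19 in wild type, a difference of -0.44 ± 0.41. Atoh8, a relative of Atoh7, had 1.70 ± 0.43 in Phc2 L307R and 1.97 ± 0.61 in wild type. All 6 differences lay below 0, but only those of Neurod1 and Atoh7 exceeded the SD over their probes. The differences of Neurog1, Neurod1, Neurod2 and Atoh7 lay below 0 in all 10 settings, which share the same Phc2 L307R arrays and are not repeats.

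The other neural genes lay near or below the cut-off. Neurod4 had 0.22 ± 0.21 in Phc2 L307R and 0.04 ± 0.12 in wild type. Neurod6, a factor of cortical projection neurons, had 0.54 ± 0.30 in Phc2 L307R and 0.14 ± 0.09 in wild type. Nhlh1, a relative of Nhlh2, had 0.34 ± 0.29 in Phc2 L307R and 0.29 ± 0.21 in wild type. All 3 stayed near the array median in both genotypes. Neurog3, which specifies pancreatic endocrine cells, had probes of 0.39, 1.25 and 0.53 in Phc2 L307R, against -0.04, -0.31 and -0.07 in wild type. The probes did not overlap and the difference was 0.87 ± 0.61, the largest positive one of all 50 genes, but the gene was below the cut-off in both genotypes and the sign turned in 2 of 10 settings. Bhlhb4 (now Bhlhe23), a factor of retinal bipolar cells, had 0.24 ± 0.29 in Phc2 L307R and 1.10 ± 1.02 in wild type, where a single probe at 2.26 set its value. Its difference, -0.86 ± 1.30, was smaller than the SD over the probes.

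Of the pair outside the nervous system, Ascl2 was bound in both genotypes and Ascl3 in neither. Ascl2, of trophoblast and intestinal stem cells, had 1.66 ± 0.60 in Phc2 L307R and 1.45 ± 0.25 in wild type. Ascl3, of salivary gland ducts, had -0.12 ± 0.37 in Phc2 L307R and 0.75 ± 1.38 in wild type. The Ascl3 difference of -0.87 ± 1.55 was smaller than the SD over its probes.

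Among the mesodermal genes, Tcf21 stood highest. Tcf21 directs visceral mesenchyme and epicardium-derived fibroblasts. In the window chr10:22508031-22508425 its 3 probes read 4.05, 4.19 and 4.23 in Phc2 L307R, against 4.73, 4.66 and 4.79 in wild type. The ranges did not overlap, and the difference of -0.57 ± 0.11 kept its sign in all 10 settings. Hand2, a factor of heart and limb, had 2.98 ± 0.15 in Phc2 L307R and 3.30 ± 0.61 in wild type. Hand1, of heart and extraembryonic mesoderm, had 2.00 ± 0.80 in Phc2 L307R and 1.79 ± 0.59 in wild type, with 0 of 3 input probes well above background in Phc2 L307R. Tcf15, needed for epithelial somites, had 1.68 ± 0.78 in Phc2 L307R and 2.38 ± 0.55 in wild type, a difference of -0.70 ± 0.38 and the most negative of this group. That of Hand1, 0.21 ± 1.26, was not larger than the SD and was negative in 6 of 10 settings.

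The Twist genes, known regulators of mesenchyme, lay slightly higher in Phc2 L307R. Twist1 had probes of 2.57, 2.63 and 2.74 in Phc2 L307R, against 2.45, 2.26 and 2.23 in wild type, a difference of 0.33 ± 0.19. Twist2 had 2.70 ± 0.22 in Phc2 L307R and 2.49 ± 0.70 in wild type, a difference of 0.21 ± 0.57. Neither met the rule of size. The Twist2 difference was positive in all 10 settings and the Twist1 difference in 9, with -0.15 in the window highest in wild type. Both promoters were bound in both genotypes at levels below those of Tcf21 and Hand2, although the SD of Twist2 overlapped that of Hand2 in each genotype.

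The remaining mesodermal genes were weakly bound or unbound. Msc (musculin), a repressor expressed in facial muscle precursors, had 1.29 ± 0.10 in Phc2 L307R and 1.62 ± 0.13 in wild type, and its difference of -0.33 ± 0.06 had the smallest SD of the mesodermal genes. Scx, the tendon factor scleraxis, had 0.83 ± 0.42 in Phc2 L307R and 1.43 ± 0.55 in wild type, on opposite sides of the cut-off. Mesp1, of cardiac mesoderm, had 0.71 ± 0.22 in Phc2 L307R and 0.94 ± 0.53 in wild type. Mesp2, which sets somite boundaries, had 0.15 ± 0.89 in Phc2 L307R and 0.52 ± 0.92 in wild type. These 2 genes, whose windows lay 19559 bp apart, were below the cut-off in both genotypes. Tcf23 was too, with -0.15 ± 0.70 in Phc2 L307R and 0.07 ± 0.72 in wild type.

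Of the myogenic determination genes, Myf5 and Myf6 were weakly bound in both genotypes and Myod1 and Myog were not bound. Myf5, the earliest of them in the embryo, had 1.34 ± 0.0042 in Phc2 L307R and 1.26 ± 0.20 in wild type. Myf6, of differentiated muscle, had 1.15 ± 0.08 in Phc2 L307R and 1.39 ± 0.62 in wild type. Their windows lay 159 bp apart on chromosome 10, so they are not separate observations. Myod1, which can turn fibroblasts into muscle, had 0.60 ± 0.67 in Phc2 L307R and 0.23 ± 0.36 in wild type. Myog, needed for fibre formation, had 0.35 ± 1.12 in Phc2 L307R and 0.15 ± 0.38 in wild type. None of the 4 myogenic differences, between -0.24 and 0.37, exceeded the SD over its probes.

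Tal1, a master factor of blood and endothelial development, had the highest value of all 50 genes. Its probes in the window chr4:114555955-114556298 read 4.11, 3.93 and 5.09 in Phc2 L307R, against 5.54, 4.64 and 5.09 in wild type. In rank it stood at 57 of 17649 promoters in Phc2 L307R and at 37 in wild type. Each probe was lower in Phc2 L307R, the third by under 0.01, and the difference was -0.72 ± 0.71. Tal2, of midbrain inhibitory neurons, had 0.78 ± 0.84 in Phc2 L307R and 1.48 ± 0.65 in wild type, and its sign turned in 3 of 10 settings. Lyl1, a relative of Tal1 in blood progenitors, had 0.54 ± 0.97 in Phc2 L307R and -0.02 ± 0.47 in wild type and was unbound.

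The Hes and Hey genes were moderately bound, with differences on both sides of 0. Hes1, the general Notch target that keeps progenitors undifferentiated, had 3.04 ± 0.27 in Phc2 L307R and 2.82 ± 0.07 in wild type, a difference of 0.22 ± 0.21. Hey1, of vessels and heart, had 2.53 ± 0.97 in Phc2 L307R and 3.06 ± 0.90 in wild type. Hey2, its partner in the ventricle, had 2.23 ± 0.31 in Phc2 L307R and 1.82 ± 0.17 in wild type, and all 3 probes were higher in Phc2 L307R in this window. The Hey2 difference of 0.41 ± 0.17 depended on the window, since the window highest in wild type gave 1.30 in Phc2 L307R and 2.34 in wild type, a difference of -1.04. Hes6, which antagonises Hes1, had 1.65 ± 0.90 in Phc2 L307R and 2.11 ± 0.52 in wild type. Hes2 had the most negative difference of this group, -0.64 ± 0.38, with 1.21 ± 1.04 in Phc2 L307R and 1.85 ± 0.96 in wild type. Hes2, Hes6 and Hey1 had a negative difference in all 10 settings.

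The other Hes and Hey genes lay near the cut-off. Hes5, a Notch target of neural progenitors, had probes of 2.02, 1.51 and 0.42 in Phc2 L307R, against 1.05, 0.98 and 0.65 in wild type. Its probes overlapped between the genotypes, and its difference of 0.43 ± 0.61 turned negative in 4 of 10 settings. Hes7, the oscillator of the somite clock, had 1.28 ± 1.51 in Phc2 L307R and 1.65 ± 0.10 in wild type. Hes3 had 0.84 ± 0.52 in Phc2 L307R and 0.40 ± 0.02 in wild type, a difference of 0.44 ± 0.54 that was the most positive of this group. Heyl had 0.23 ± 0.67 in Phc2 L307R and 0.42 ± 0.34 in wild type. Hes3 and Heyl were unbound in both genotypes.

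All 4 Id genes were bound in both genotypes. Id2 had the smallest SD of the difference among the 50 genes, with probes of 3.41, 3.04 and 2.57 in Phc2 L307R, against 3.33, 3.07 and 2.55 in wild type, a difference of 0.03 ± 0.05. Id3 had 3.10 ± 0.82 in Phc2 L307R and 2.62 ± 0.70 in wild type. Id4 had 2.51 ± 0.53 in Phc2 L307R and 2.33 ± 0.42 in wild type, and Id1 had 1.94 ± 1.42 in Phc2 L307R and 1.89 ± 1.58 in wild type. The Id differences ran between 0.03 and 0.48, none above the SD over its probes, and they were negative in 7 (Id1), 2 (Id2), 3 (Id3) and 5 (Id4) of the 10 settings, so no direction is given for the family.

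Set side by side, the neural genes had a median of 1.78 in Phc2 L307R (range 0.22 to 4.32) and 2.42 in wild type (-0.14 to 4.66). The 15 mesodermal and myogenic genes had medians of 1.29 in Phc2 L307R (-0.15 to 4.16) and 1.43 in wild type (0.07 to 4.72). The 13 Hes, Hey and Id genes had medians of 1.94 in Phc2 L307R (0.23 to 3.10) and 1.89 in wild type (0.40 to 3.06). Over all promoters the medians were 0.80 in Phc2 L307R and 0.90 in wild type. All 3 groups therefore sat above the promoters at large, without adjustment for the number of probes per promoter. The ranges of the groups overlapped in both genotypes, and the order of their medians differed between the genotypes. In Phc2 L307R a value of at least 3 was reached by 5 neural genes, 1 mesodermal gene and 3 of the Hes, Hey and Id genes. In wild type it was reached by 5 neural genes, 2 mesodermal genes and 1 of the Hes, Hey and Id genes. The highest of the Hes, Hey and Id genes stayed below the highest neural and mesodermal genes by over 1 in both genotypes.

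The differences of the 3 groups also overlapped. The median difference was -0.21 for neural genes, -0.23 for mesodermal and myogenic genes and 0.05 for Hes, Hey and Id genes, beside -0.05 over all promoters. Over bound genes alone these medians were -0.31, -0.28 and 0.05 in the same order, beside -0.14 over all bound promoters. At a value of at least 3 in either genotype they were -0.34 (5 genes), -0.44 (2 genes) and 0.12 (4 genes). Over all 341 promoters in that range the median was -0.30. A difference below 0 was found at 11 of 13 bound neural genes, at 6 of 10 bound mesodermal and myogenic genes and at 4 of 11 bound Hes, Hey and Id genes, beside 61.9% of all bound promoters. The differences between the groups were not tested. Taken over all genes of a group, the neural and the mesodermal and myogenic medians were negative in 9 of 10 settings. Each was 0.03 in the window highest in Phc2 L307R. The Hes, Hey and Id median changed sign with the setting, between -0.37 and 0.30, so it has no settled direction. Group medians by array design differed as well: on design 1 the neural median difference was -0.31 (9 genes) and on design 2 it was -0.10 (8 genes).

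The Ring1B stretch around many of these genes was shorter in Phc2 L307R than in wild type. Width was taken as the longest run of neighbouring probes that were each at or above 1. With this fixed cut-off, a profile that lies lower throughout also gives a shorter run, so width is not a readout separate from height. Around Tcf21 the run was 9 probes (1715 bp) in Phc2 L307R and 36 probes (6169 bp) in wild type. Around Tal1 it was 10 probes (1964 bp) in Phc2 L307R and 32 probes (7342 bp) in wild type, and around Olig3 it was 18 probes (3269 bp) in Phc2 L307R and 31 probes (6055 bp) in wild type. In each of these genes single probes in Phc2 L307R dipped below 1 and broke the run. The share of all probes at or above 1 therefore differed less, at 76.9% in Phc2 L307R and 92.3% in wild type for Tcf21 and at 73.5% in Phc2 L307R and 94.1% in wild type for Tal1. The mean over all probes of Tcf21 was 1.87 in Phc2 L307R and 2.99 in wild type, and that of Tal1 was 2.37 in Phc2 L307R and 3.32 in wild type. A run cannot extend past the probes of its gene. The wild-type run of Tal1 reached the last probe, which read 5.31. Both runs of Tcf21 began at the first probe, which read 2.64 in Phc2 L307R and 3.81 in wild type. The lengths of such runs are lower bounds.

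**Figure D2:**
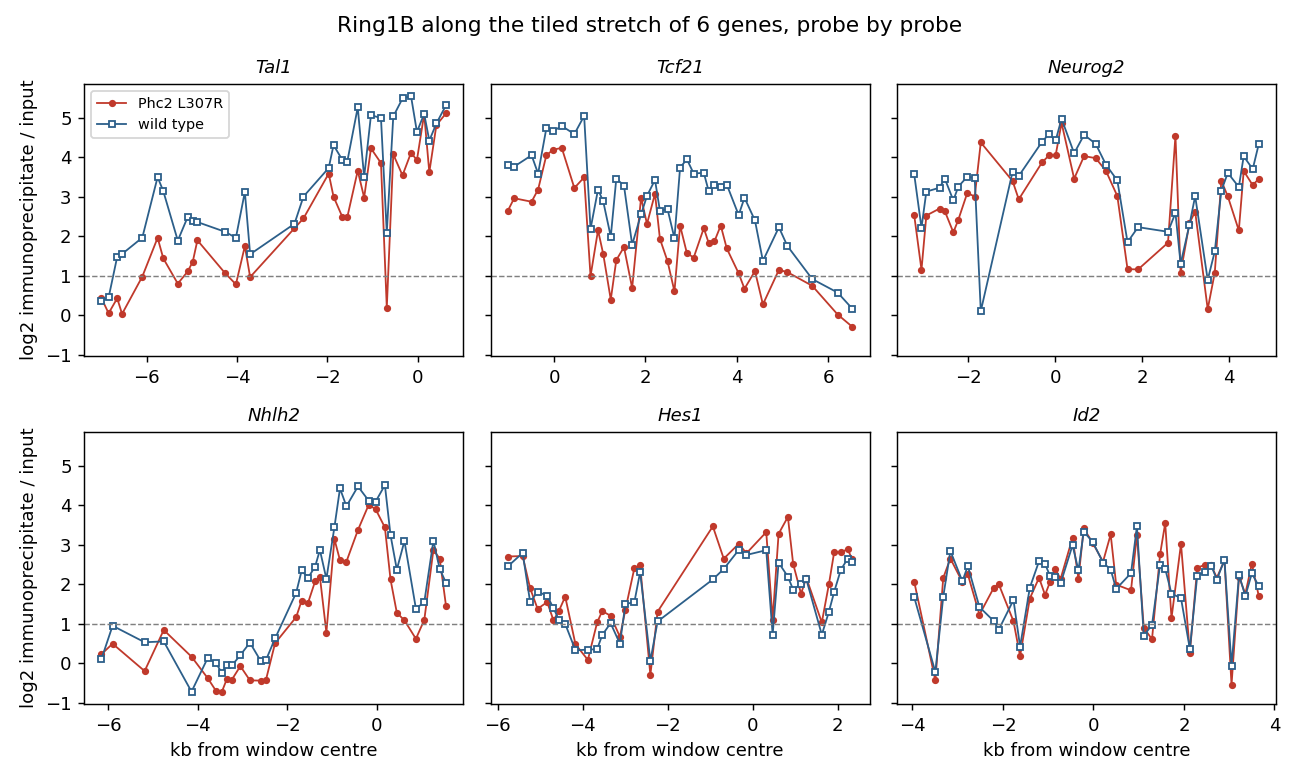
Log2 ratio of each probe against its distance in kb from the centre of the 3-probe window, for 6 genes chosen after their values were seen. Phc2 L307R is drawn with filled circles, wild type with open squares, and the dashed line marks 1. Phc2 L307R lies under wild type at 33 of 34 probes of Tal1, 38 of 39 of Tcf21, 32 of 36 of Neurog2 and 32 of 36 of Nhlh2, whereas it lies above at 28 of 36 probes of Hes1 and at 21 of 43 of Id2.

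Further genes had shorter, equal or longer runs. Nhlh2 had 10 probes in Phc2 L307R and 21 in wild type, and Neurod2 had 6 in Phc2 L307R and 17 in wild type. Hey2 had 7 probes in Phc2 L307R and 17 in wild type, and Atoh7 had 1 in Phc2 L307R and 10 in wild type. Hand2 had 19 probes in Phc2 L307R and 25 in wild type, and Olig2 had 21 in Phc2 L307R and 24 in wild type. All 6 were shorter in Phc2 L307R, from neural, mesodermal and Hey genes alike. Twist2 had 14 probes and Id2 had 15 in each genotype. Longer in Phc2 L307R were the proneural gene Neurog2, with 28 probes in Phc2 L307R and 18 in wild type, and the Notch target Hes1, with 18 in Phc2 L307R and 7 in wild type. At Neurog2 single probes below 1 broke the wild-type run, as the share of probes at or above 1 was 97.2% in Phc2 L307R and 94.4% in wild type.

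**Figure D3:**
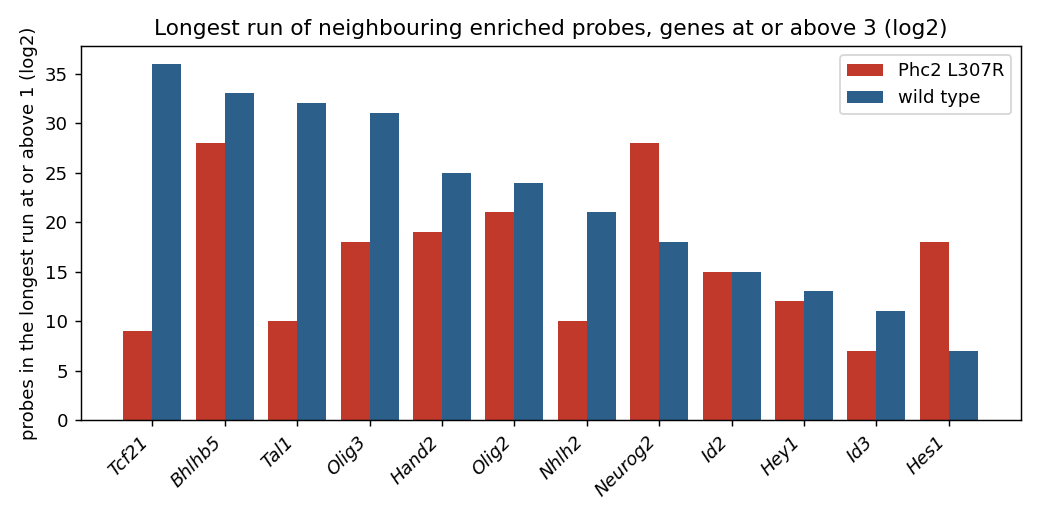
Number of probes in the longest run at or above 1 (log2) for the 12 genes with a value of at least 3 in either genotype, with Phc2 L307R to the left of wild type, ordered by the wild-type run. Tcf21, Tal1, Olig3 and Nhlh2 are among the genes with the shorter bar in Phc2 L307R, Id2 is equal, and Neurog2 and Hes1 are longer.

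Over the 37 bound genes the run was shorter in Phc2 L307R at 22, equal at 7 and longer at 8, with medians of 7 probes in Phc2 L307R and 9 in wild type. Shorter runs thus made up 59.5%, beside 47.8% of all bound promoters, and longer runs 21.6%, beside 21.9%. Over the 12 genes with a value of at least 3 it was shorter at 9, equal at 1 and longer at 2, with medians of 16.5 probes in Phc2 L307R and 22.5 in wild type. Of all 341 promoters in that range 55.7% were shorter and 15.5% longer. They had medians of 14 probes in Phc2 L307R and 17 in wild type, so shorter runs were not confined to bHLH genes. When each probe was first averaged with its neighbours, which removes single dips, 26 of the 37 genes were shorter, 2 equal and 9 longer, but Tcf21 then had 31 probes in Phc2 L307R and 37 in wild type, and Tal1 had 29 in Phc2 L307R and 32 in wild type. The noise between neighbouring probes was larger in Phc2 L307R, with SDs of 0.436 and 0.419 on designs 1 and 2, than in wild type, with 0.384 and 0.345. Its part in the shorter runs was not tested.

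The deposited value tables gave larger differences at many of the same genes. For Phc2 L307R the tables hold the scanner ratios, with 99.8% of probes on each design within 0.01 (log2) of them after centring. For wild type they do not, with a correlation across the probes of 0.854 on design 1 (237195 probes) and 0.892 on design 2 (237185 probes), and no source used here names the array or processing behind them. The comparison in the tables uses the same Phc2 L307R arrays and is no independent repeat. With windows chosen in the tables, 16 of 38 bound genes were lower in Phc2 L307R by the rule of size, beside 8.24% of all bound promoters, and 0 were higher, beside 0.585%. Highly enriched promoters were lower in the tables in general: of those with a value of at least 3, 14 of 18 lineage bHLH genes were lower, beside 73.7% of all promoters in that range.

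By role, the 16 genes were 8 neural genes, 5 mesodermal genes, Tal1, Hey1 and Hey2. The neural genes were Neurog1, Neurog2, Neurod1, Neurod2, Atoh7, Olig2, Olig3 and Nhlh2, and the mesodermal genes were Tcf15, Tcf21, Hand1, Hand2 and Msc. In the tables Olig3 had 3.37 in Phc2 L307R and 5.34 in wild type, a difference of -1.97 ± 0.21. Tal1 had 4.51 in Phc2 L307R and 6.38 in wild type, a difference of -1.87 ± 0.23, and Neurog2 had 4.31 in Phc2 L307R and 6.13 in wild type, a difference of -1.82 ± 0.30. These 3 were also lower in the scanner values, by less. Hey2 had the largest fall of the tables, with 1.42 in Phc2 L307R and 3.68 in wild type, a difference of -2.26 ± 0.43. None of the 4 myogenic, 4 Id or 6 Hes genes was lower by the rule in the tables. Twist1 (0.01 ± 0.32), Twist2 (0.22 ± 0.45) and Hes1 (0.06 ± 0.45) had differences close to 0 there as well.

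**Figure D4:**
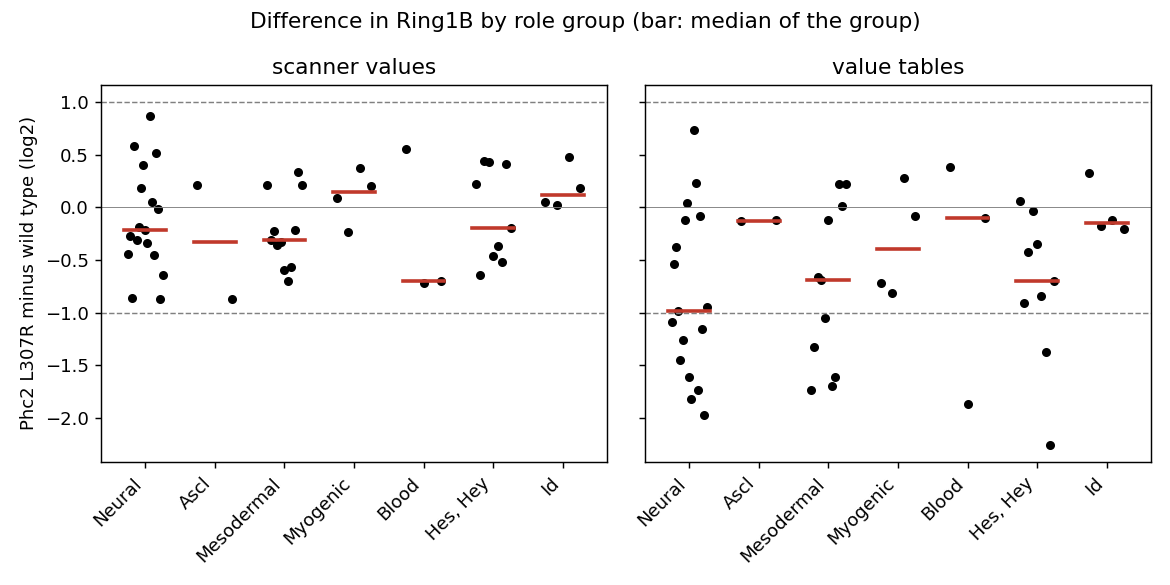
Difference Phc2 L307R minus wild type (log2) of each gene by role group, from the scanner values on the left and from the deposited value tables on the right. Red bars are group medians and dashed lines mark -1 and 1. In the scanner values all points lie between -0.87 and 0.87, whereas in the tables the neural median is -0.98, the mesodermal median -0.69 and the Id median -0.15.

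Signal over background limits the dimmer values. Immunoprecipitate probes were well above background at 99.1% on each design in Phc2 L307R and at 97.9% and 99.7% on designs 1 and 2 in wild type. In the input channel 75.0% and 76.3% were so in Phc2 L307R and 85.7% and 86.7% in wild type. At the 150 window probes of the 50 genes, the input was well above background at 93 in Phc2 L307R and at 119 in wild type. When the probes were limited to those well above background, Neurog1, Nhlh2 and Olig3 met the rule of size as lower in Phc2 L307R. Over all bound promoters the share was 2.77% under that setting. Neurog1 then had 1.53 in Phc2 L307R and 2.63 in wild type, a difference of -1.11. Nhlh2 had 3.13 in Phc2 L307R and 4.32 in wild type, a difference of -1.19. Olig3 had 3.14 in Phc2 L307R and 4.16 in wild type, a difference of -1.01.

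The count of 0 genes lower in Phc2 L307R depended on the processing. It held with loess, with windows of 5 probes, in the window highest in Phc2 L307R and with a cut-off for bound of 1.5, and not under the other settings. In the window highest in wild type 8 genes were lower in Phc2 L307R, beside 5.31% of all bound promoters. They included Tal1, with 3.91 in Phc2 L307R and 5.35 in wild type, Nhlh2, with 2.85 in Phc2 L307R and 4.29 in wild type, and Tcf21, with 3.65 in Phc2 L307R and 4.80 in wild type. Choosing the window by the wild-type value favours higher wild-type values, and in the window highest in Phc2 L307R 0 genes were lower, beside 1.06%. The shares in this paragraph cover all bound promoters and were not matched for the level of enrichment. In the values as first reported, the share of lower promoters was 2.03% between 1 and 2 and 17.3% at 3 or more. Tcf21 was lower in 4 of the settings, including the mean over all of its probes. For that mean the rule asked for the size of the difference alone, and 1 of the 39 Tcf21 probes was higher in Phc2 L307R. Nhlh2 was lower by the rule in 4, Olig3 in 3 and Tal1 in 2 of the 10. The other shares of lower promoters were 4.54% with normexp background correction (1 gene, Nhlh2), 2.76% with loess (0 genes), 4.67% with arrays scaled to the same spread (2 genes), 2.77% with probes well above background (3 genes), 1.57% with windows of 5 probes (0 genes), 1.28% with the mean over all probes (1 gene) and 4.26% with the cut-off of 1.5 (0 genes). With a rule of 1.5-fold, 7 genes were lower, beside 13.5%. Under each of these settings 0 genes were higher. The shares of higher promoters there were 0.252% with normexp, 1.63% with loess, 1.1% with the same spread, 0.476% with probes well above background, 0.688% with windows of 5 probes, 0.364% in the window highest in wild type, 3.46% in the window highest in Phc2 L307R, 0.213% with the mean over all probes, 1.97% with the cut-off of 1.5 and 6.38% with the rule of 1.5-fold.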

How the data were processed

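Ring1B immunoprecipitate (Cy5) and input (Cy3) were hybridised to 4 two-colour promoter arrays, 1 per genotype on each of 2 designs, and genotypes were read from the labels. Spot intensity values and the log10 ratio of Cy5 over Cy3 were deposited as scanner output, made per the file headers with Agilent Feature Extraction 10.7.3.1 after background subtraction, detrending and dye normalization. Set against the scanner output, the deposited value tables proved to be log10 ratios too; their column medians were -0.0342 (design 1) and -0.0393 (design 2) for Phc2 L307R and -0.056 and -0.0615 for wild type. Their centring and, for wild type, their source are unknown. Dye direction comes from the labels, and no dye swap was made. Per the file headers, the deposited flags mark spots that are outliers, saturated or well above background.

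Control and outlier-flagged spots were left out, saturated spots kept, and ratios put on the log2 scale, and the array median subtracted. Each promoter was summarised by its best window of 3 neighbouring probes within 2000 bp, and fixed rules of size took the place of tests. Gene names are those of the array, of which 48 are current symbols and 2 older ones. The steps were tested on simulated data. Alternatives were normexp background correction (offset 50) and loess (limma 3.58.1), arrays scaled to the same spread, the value tables, only probes well above background, windows of 5 probes within 3000 bp, windows chosen in either genotype, the mean over all probes, a cut-off of 1.5 and a rule of 1.5-fold. The text names every gene that met the rule of size, the highest and lowest 3 levels and the highest and lowest 2 differences of each role group. It adds the remaining genes for completeness, the highest and lowest gene of the comparison lists, and Sim2. The exception is 1 E protein gene with an ambiguous array name, which is not reported singly. The short neural, muscle and blood marker lists are given as counts. The genes, lists and rules were chosen with earlier results of these data known. The number of arrays limits the precision. Expression cannot be read from these arrays, so the fibroblast label was not checked by expression.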

Additional observations from a re-analysis of the deposited data

How the results depend on the processing

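No paired analysis was possible because the numbers in the sample titles are array designs that share 0 probes, and no array could be left out for the same reason. The count of genes lower in Phc2 L307R, 0 of 37, was the result that moved most: it was 1 (Nhlh2) with normexp, 2 (Olig3 and Tcf21) with arrays scaled to the same spread, 16 in the value tables, 3 with only probes well above background, 8 in the window highest in wild type (beside 5.31% of all bound promoters), 1 (Tcf21) with the mean over all probes and 7 with the rule of 1.5-fold (beside 13.5%). It was 0 with loess, with windows of 5 probes, in the window highest in Phc2 L307R and with a cut-off of 1.5. No gene was higher under any of these settings. The shares beside these counts cover all bound promoters and were not matched for the level of enrichment. The 8 genes in the window highest in wild type were Neurog1, Nhlh2, Atoh7, Tcf21, Hand1, Hand2, Tal1 and Hey2, and choosing the window in 1 genotype favours that genotype by construction. The mean over all probes, which includes unbound flanks, left 16 genes bound in Phc2 L307R and 18 in wild type. For it the rule asked for the size of the difference alone, without the same direction at each probe.

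The neural median in Phc2 L307R was 1.17 with normexp and 0.74 with the mean over all probes. In wild type it was 1.34 with normexp, 2.73 in the value tables, 1.67 with only probes well above background, 2.09 with windows of 5 probes, 1.62 in the window highest in Phc2 L307R and 0.71 with the mean over all probes. The neural median difference was -0.98 in the value tables and -0.62 in the window highest in wild type. The mesodermal and myogenic median in Phc2 L307R was 0.69 with normexp, 0.83 with only probes well above background, 0.94 with windows of 5 probes and 0.18 with the mean over all probes. In wild type it was 2.06 in the value tables and 0.15 with the mean over all probes, and the median difference was -0.69 in the value tables. The Hes, Hey and Id median with the mean over all probes was 0.76 in Phc2 L307R and 0.90 in wild type, and its median difference was -0.35 in the value tables and -0.37 in the window highest in wild type. Beyond these constructions the causes were not tested. The width alternatives were chosen after seeing the data: 26 genes were shorter in Phc2 L307R with the running mean, 23 in the value tables and 21 with loess, against 22 as reported.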

Other observations

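Promoters of bHLH genes outside the lineage list were also occupied. A list of 30 bHLH and bHLH leucine zipper genes, drawn up as broadly expressed, had medians of 1.71 in Phc2 L307R and 1.66 in wild type. Of these, 22 were bound in Phc2 L307R, beside 39.3% of all promoters, and 23 in wild type, beside 45.4%. A value of at least 3 was reached by 2 of the 30 in each genotype, against 10 of the 50 lineage genes in Phc2 L307R and 9 in wild type, a contrast that was not tested. Those 2 genes were Sim1 and Sim2. The highest was Sim1, a factor of hypothalamic neurons that is itself tissue-restricted, with 4.87 in Phc2 L307R and 5.58 in wild type. Sim2 had 4.44 in Phc2 L307R and 4.63 in wild type. The list is thus not confined to broadly expressed genes. The lowest in wild type was Tcfeb, with 0.10 in Phc2 L307R and -0.14 in wild type. Among E proteins, the dimer partners of the lineage factors, Tcfe2a had 2.68 in Phc2 L307R and 2.51 in wild type, and Tcf12 had 1.89 in Phc2 L307R and 1.90 in wild type. The 7 Groucho and Notch effector genes, whose products act with Hes proteins, had medians of 2.47 in Phc2 L307R and 1.99 in wild type, with Tle1 the highest in wild type at 2.71 in Phc2 L307R and 2.98 in wild type and Tle6 the lowest at 0.32 in Phc2 L307R and -0.08 in wild type. None of these genes met the rule of size.

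Most of a short list of genes typical of fibroblasts also passed the cut-off for bound. Of 10 fibroblast marker genes, 9 were bound in Phc2 L307R, beside 39.3% of all promoters, and 9 in wild type, beside 45.4%. Their medians were 2.26 in Phc2 L307R and 2.01 in wild type. The highest value was at Pdgfra, with 3.11 in Phc2 L307R and 3.03 in wild type. The lowest in wild type was Pdgfrb, with 1.66 in Phc2 L307R and 0.98 in wild type. Of 3 skeletal muscle and 2 blood marker genes, 0 were bound in either genotype, beside 51% of all promoters, and of 3 neural marker genes 2 were bound in each. These lists are too short to be compared with the shares over all promoters. The cut-off for bound was thus passed by genes typical of these cells as well as by genes of other lineages, as it was by 51% of all promoters.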
